A study of Saccharomyces cerevisiae with 8 samples.

Results

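The genes described here are 10 genes of calcium transport and calcineurin signalling in Saccharomyces cerevisiae. CRZ1, CNA1, CMP2, CNB1, RCN1 and RCN2 belong to the calcineurin pathway, and PMC1, PMR1, VCX1 and CCH1 move calcium across membranes. They were found by their names in the table of read counts, which holds 7127 genes, and all 10 were present. All 10 also passed the filter on low values, which kept 5430 genes, and the lowest value of any of them in any library was 13.6 CPM (counts scaled to the library total with TMM normalization factors).

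RNA was sequenced from 2 strains in 2 media, with 2 libraries in each of the 4 groups. CRN is a MATa ade2 his3 ura3 strain that lacks the polyphosphatase gene PPN1 (ppn1Δ::CgTRP1), and all groups carry this deletion. CRN/PPN2 is CRN with the centromeric plasmid pMB1/PPN2, which expresses PPN2, the gene of another polyphosphatase, from the constitutive TDH3 promoter and carries the URA3 marker. Cells were grown to the late logarithmic stage in YPD for 16 h (both strains) or in YPD with 20 mM KOH for 40 h (CRN) or 25 h (CRN/PPN2). For RNA, the other 3 groups were stored frozen and disrupted with a French press, but CRN/PPN2 +KOH cells went straight into Trizol LS. In this group the effects of strain, medium, hours of growth and lysis cannot be told apart. Medium and hours of growth (40 h against 16 h) cannot be told apart in CRN either. A KOH effect below means the difference of KOH vs. YPD as sampled, with no cause assigned. Replicates 1 and 2 were prepared and sequenced as separate batches. Whether they were separate cultures is not given in the sources used here, and p-values then measure only the spread between libraries, which may be technical.

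The libraries held 3844316 to 5004823 counts in 6 cases and 1559324 and 796548 counts in CRN/PPN2 +KOH, where a single count equals 0.641 and 1.26 CPM against 0.2 to 0.26 CPM elsewhere. PPN1 had 0 or 1 count in every library, and PPN2 was at 206 to 220.0 CPM in CRN and at 5997 to 6854 CPM in CRN/PPN2. The MATa receptor gene STE2 was at 320.1 to 757 CPM. The alpha-specific genes MF(ALPHA)1, MF(ALPHA)2 and STE3 had 0 to 19 CPM, with the highest values in CRN/PPN2 +KOH.

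Calcium in the yeast cytosol is kept low by pumps and exchangers that move it into the vacuole and the Golgi. The vacuole holds most of the calcium of the cell, largely bound to polyphosphate. Calcium that enters through the plasma membrane channel Cch1-Mid1 binds calmodulin, which activates calcineurin, a phosphatase made of a catalytic and a regulatory subunit. Calcineurin removes phosphate from the transcription factor Crz1, which then enters the nucleus and binds the calcineurin-dependent response element (CDRE) in front of its target genes. A shift to alkaline medium is a known trigger of this pathway. Most of the control of Crz1 and calcineurin thus acts on proteins, and mRNA levels do not measure their activity.

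The CDRE was searched for in the 600 bases before each start codon in the R64 genome, as the letters GNGGCGCA or GNGGCTCA on both strands. The sites below are shown because they are the places where the DNA in front of a pump gene of the group and of 2 genes known as Crz1 targets holds the letters of this element. PMC1 encodes the calcium pump of the vacuole, ENA1 the sodium pump of the plasma membrane and MEP1 an ammonium permease. Capitals mark the matched letters, and each window is written on the coding strand of its gene.
PMC1, chrVII:485370-485399, plus strand, 540 bases before the start codon: aagaaaattagGAGGCTCAggccctagaag
PMC1, chrVII:485767-485796, plus strand, 143 bases before the start codon, element on the opposite strand: caaaaaactcaTGCGCCTCcagtaaaaact
ENA1, chrIV:538986-539015, minus strand, 537 bases before the start codon: cgtcattttgcGGGGCTCAtcatttatttc
MEP1, chrVII:733334-733363, minus strand, 425 bases before the start codon, element on the opposite strand: gaactttgtttTGCGCCTCccctccctttg
Among the 10 genes, PMC1 was the only gene with a match, and it had 2. Of 13 genes known as Crz1 targets, 2 had a match, and of all 5327 tested genes with such a window the share was 4.6%. The stress response element AGGGG was found in front of CRZ1, CMP2, RCN2, PMC1 and CCH1, which is 5 of the 10 genes, against 39.9% of the tested genes. The match in front of MEP1 overlaps an AGGGG on the same strand. These matches describe letters only.

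CRZ1 (YNL027W, chromosome XIV, 579580 to 581616, plus strand) encodes the transcription factor on which the pathway ends. Its level in replicates 1 and 2 was 68 and 64.2 CPM in CRN in YPD, 74.4 and 64 in CRN +KOH, 67.8 and 76.9 in CRN/PPN2 in YPD, and 65.2 and 66.4 in CRN/PPN2 +KOH. The groups lay in the same range, and the group means of CRZ1 spanned 1.1-fold, the narrowest range of the 10 genes. KOH vs. YPD gave a log2 fold change of 0.06 (SE 0.13, 95% interval -0.22 to 0.34) in CRN and of -0.14 (SE 0.16, -0.49 to 0.20) in CRN/PPN2. Neither passed the test (adjusted p = 0.802 and 0.469, edgeR).

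**Figure D1:**
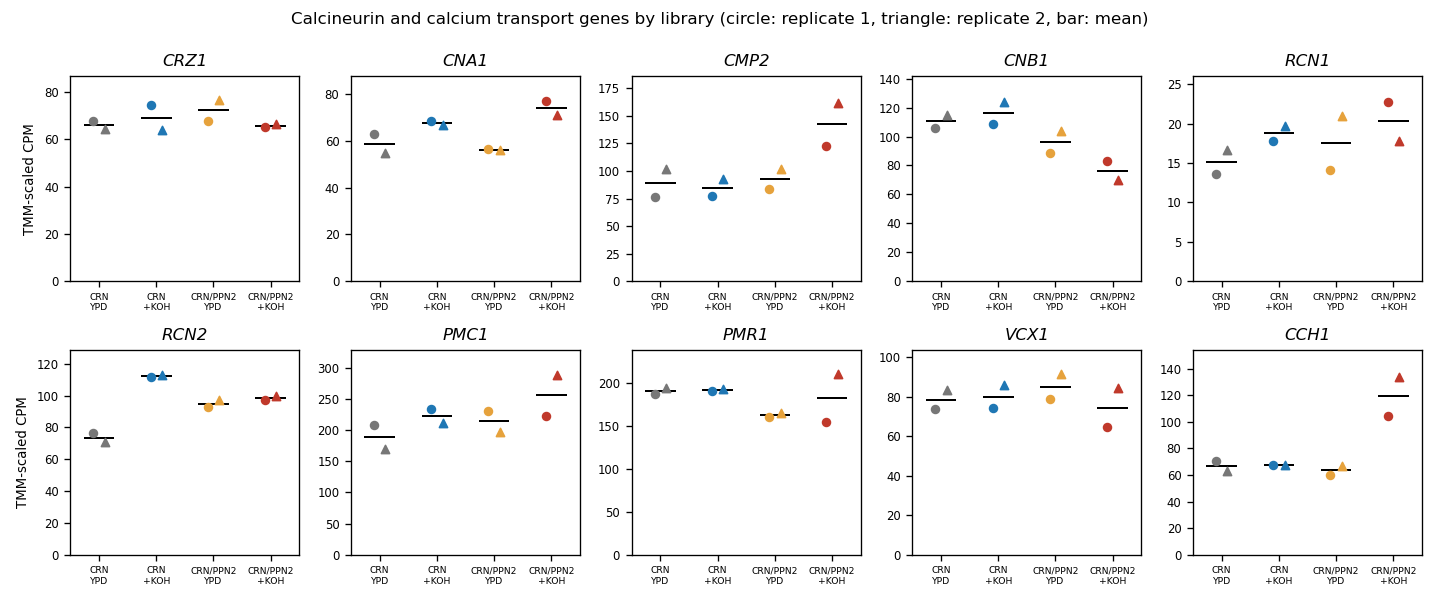
Level of each of the 10 genes (y axis, TMM-scaled CPM from 0) in the 4 groups (x axis); circles are replicate 1, triangles replicate 2 and bars the mean of the 2 libraries. CCH1 and CMP2 are highest in both CRN/PPN2 +KOH libraries, RCN2 is lowest in both CRN libraries in YPD, and CRZ1 stays between 64 and 76.9 CPM.

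The catalytic subunits of calcineurin are encoded by a pair of paralogs, CNA1 and CMP2. CMP2 (YML057W, chromosome XIII, 160180 to 161994, plus strand) was at 76.4 and 102 CPM in CRN in YPD, 77.1 and 92.5 in CRN +KOH, 83.4 and 102 in CRN/PPN2 in YPD, and 123 and 162 in CRN/PPN2 +KOH. Both CRN/PPN2 +KOH libraries were above the other 6, and replicate 2 was above replicate 1 in every group. CMP2 rose with KOH in CRN/PPN2 by a log2 value of 0.61 (SE 0.13, adjusted p = 0.00079, edgeR), and it was higher in CRN/PPN2 than in CRN with KOH by 0.74 (SE 0.13, adjusted p = 0.000151). Within replicate 1 and replicate 2 the latter difference was 0.67 and 0.81. In CRN the KOH effect was -0.07 (SE 0.12, 95% interval -0.32 to 0.19), and the effect in CRN/PPN2 exceeded it by 0.68 (SE 0.18, adjusted p = 0.00614). The last call was lost in 4 of 14 alternative analyses, with an adjusted p of up to 0.0721.

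A dubious reading frame, YML057C-A, overlaps CMP2 on the opposite strand. It had at most 7 counts in the 6 other libraries and 28 and 9 counts in CRN/PPN2 +KOH, which is 17.7 and 10.7 CPM. The 287 dubious frames that lie antisense to other genes took 0.0754% and 0.0923% of the counts in these libraries against 0.033% to 0.0378% elsewhere. The library kit marks the strand, but the sources used here do not state which strand column was counted, and the part of antisense reads in the CMP2 difference was not tested.

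CNA1 (YLR433C, chromosome XII, 1004347 to 1006008, minus strand) was at 63 and 54.7 CPM in CRN in YPD, 68.3 and 66.6 in CRN +KOH, 56.4 and 55.9 in CRN/PPN2 in YPD, and 77.2 and 71.1 in CRN/PPN2 +KOH. The KOH libraries lay above the YPD libraries in both strains. In CRN/PPN2 this rise passed the test, at 0.40 on the log2 scale (SE 0.15, adjusted p = 0.0342, edgeR), whereas in CRN the change of 0.20 did not (SE 0.13, adjusted p = 0.319). The difference between these KOH effects was 0.20 (SE 0.20, 95% interval -0.22 to 0.62, adjusted p = 0.44), so they were not shown to differ. The call in CRN/PPN2 was lost in 11 of 15 alternative analyses, with an adjusted p of up to 0.171.

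CNB1 (YKL190W, chromosome XI, 82947 to 83550, plus strand, 2 exons) encodes the regulatory, calcium-binding subunit. Its level was 106 and 115 CPM in CRN in YPD, 109 and 124 in CRN +KOH, 88.5 and 104 in CRN/PPN2 in YPD, and 82.9 and 70 in CRN/PPN2 +KOH. CRN/PPN2 lay below CRN in both media, with no overlap of the libraries. With KOH the difference passed the test at a log2 value of -0.57 (SE 0.15, adjusted p = 0.00402, edgeR), and in YPD it was -0.20 (SE 0.12, adjusted p = 0.404). The size of the difference with KOH varied between the batches, from -0.40 in replicate 1 to -0.82 in replicate 2. Without CRN/PPN2 +KOH replicate 2, the shallowest library, it was -0.37 and no longer passed the test (adjusted p = 0.0561).

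Per kilobase of coding sequence, the regulatory subunit had the most mRNA of the 3 subunits. In CRN in YPD the level was 209 ± 12.1 CPM per kb for CNB1, 49.1 ± 9.97 for CMP2 and 35.4 ± 3.53 for CNA1 (SD, n = 2). In CRN/PPN2 +KOH the same levels were 145 ± 17.3, 78.5 ± 15.2 and 44.6 ± 2.6 CPM per kb (SD, n = 2). CNB1 was thus above both catalytic subunit genes in every group, and the distance was smallest in CRN/PPN2 +KOH, where CNB1 had its lowest and CMP2 and CNA1 their highest mean.

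RCN2 (YOR220W, chromosome XV, 755328 to 756125, plus strand) and RCN1 (YKL159C, chromosome XI, 153816 to 154451, minus strand) encode proteins that bind calcineurin and inhibit it. RCN2 was at 76.4 and 70.6 CPM in CRN in YPD, 112 and 113 in CRN +KOH, 92.8 and 97.3 in CRN/PPN2 in YPD, and 97.4 and 99.6 in CRN/PPN2 +KOH. The lowest libraries were those of CRN in YPD and the highest those of CRN +KOH, with all 4 CRN/PPN2 libraries between them. In CRN, RCN2 rose with KOH by a log2 value of 0.62 (SE 0.12, adjusted p = 0.00171, edgeR), by 0.55 within replicate 1 and 0.68 within replicate 2. The call was lost in 3 of 15 alternative analyses: with thinning (0.44, adjusted p = 0.234), without CRN replicate 2 in YPD (0.53, adjusted p = 0.116) and without CRN +KOH replicate 2 (0.59, adjusted p = 0.0746). In CRN/PPN2 the KOH effect was 0.05 (SE 0.14, 95% interval -0.24 to 0.34, adjusted p = 0.785).

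The KOH effect on RCN2 was lower in CRN/PPN2 than in CRN by a log2 value of -0.57 (SE 0.18, adjusted p = 0.021, edgeR). This call was lost in 10 of 14 alternative analyses, with values from -0.64 to -0.45 and an adjusted p of up to 0.247. In YPD, RCN2 was at a higher level in CRN/PPN2 than in CRN by 0.37 (SE 0.12), which missed the threshold (adjusted p = 0.0798).

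RCN1 had the lowest CPM of the 10 genes, with 13.6 and 16.6 CPM in CRN in YPD, 17.8 and 19.7 in CRN +KOH, 14.1 and 21 in CRN/PPN2 in YPD, and 22.8 and 17.8 in CRN/PPN2 +KOH. In the last group these values rest on 36 and 15 counts. KOH vs. YPD gave 0.31 (SE 0.21, 95% interval -0.13 to 0.75) in CRN and 0.30 (SE 0.27, -0.26 to 0.85) in CRN/PPN2, and neither passed the test (adjusted p = 0.34 and 0.358, edgeR). The intervals are the widest of the 10 genes and, in both strains, include a change of the size found for RCN2 in CRN.

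CCH1 (YGR217W, chromosome VII, 924696 to 930815, plus strand) encodes the pore of the plasma membrane calcium channel. It was at 70.5 and 62.7 CPM in CRN in YPD, 67.2 and 67.5 in CRN +KOH, 59.9 and 66.9 in CRN/PPN2 in YPD, and 104 and 134 in CRN/PPN2 +KOH. The first 3 groups overlapped, and both CRN/PPN2 +KOH libraries lay far above them. CCH1 rose with KOH in CRN/PPN2 by a log2 value of 0.88 (SE 0.15, adjusted p = 0.000106, edgeR) and by 0.80 and 1.00 within replicates 1 and 2. In CRN the KOH effect was 0.02 (SE 0.14, 95% interval -0.28 to 0.31), and the difference between the strains was 0.87 (SE 0.21, adjusted p = 0.00303). The difference between the strains with KOH was 0.80 (SE 0.15, adjusted p = 0.000285). These 3 calls were kept in every alternative analysis that was run.

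The group means of CCH1 spanned 1.86-fold, the widest range of the 10 genes, but per kilobase its mRNA was the scarcest, at 10.9 ± 0.901 CPM per kb in CRN in YPD and 19.4 ± 3.47 in CRN/PPN2 +KOH (SD, n = 2). CCH1 is also the longest of them, with 6120 coding bases. The 196 tested genes over 4 kb had a median log2 fold change of 0.01 for KOH vs. YPD in CRN/PPN2, and 26% of them were called higher, against 28.8% of all tested genes with a known length.

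**Figure D2:**
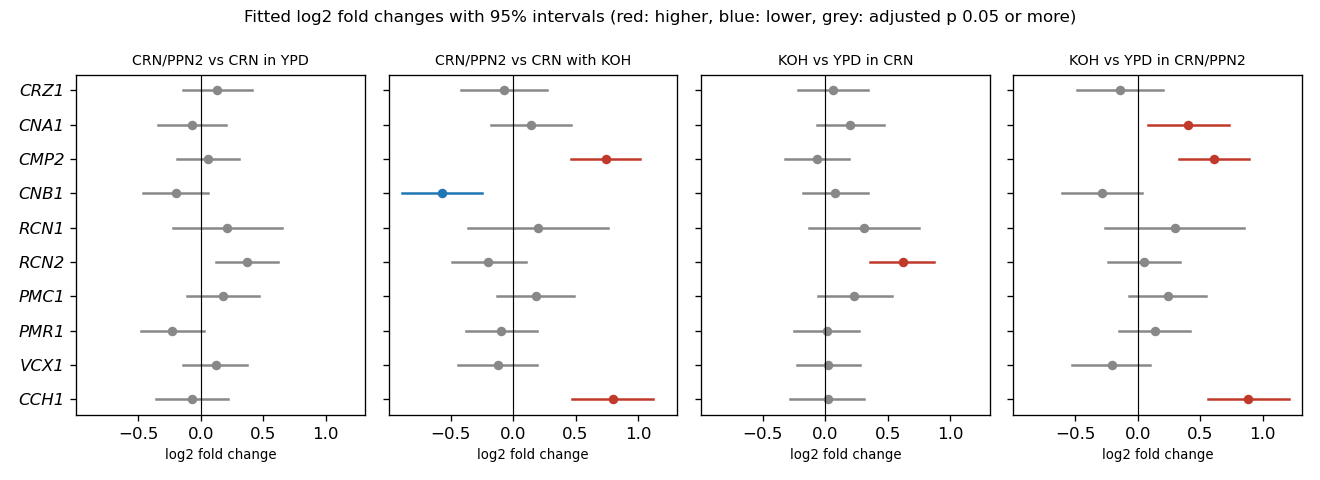
Fitted log2 fold change (x axis) of each of the 10 genes (y axis) with its 95% interval in the 4 pairwise comparisons. Coloured points passed an adjusted p of 0.05: none for the strains in YPD, CMP2, CNB1 and CCH1 for the strains with KOH, RCN2 for KOH in CRN, and CNA1, CMP2 and CCH1 for KOH in CRN/PPN2.

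The pumps and the exchanger that remove calcium from the cytosol showed no call in any comparison with all 8 libraries. PMC1 (YGL006W, chromosome VII, 485921 to 489442, plus strand), the vacuolar pump gene with the CDRE matches shown above, was at 208 and 170 CPM in CRN in YPD, 234 and 211 in CRN +KOH, 231 and 197 in CRN/PPN2 in YPD, and 223 and 288 in CRN/PPN2 +KOH. CRN +KOH lay above CRN in YPD by 0.23 (SE 0.14, 95% interval -0.06 to 0.53, adjusted p = 0.272, edgeR). In CRN/PPN2 the KOH effect was 0.24 (SE 0.15, -0.07 to 0.55, adjusted p = 0.182), but the batches went opposite ways, with -0.05 in replicate 1 and 0.55 in replicate 2. Without CRN/PPN2 +KOH replicate 1 it was 0.57 and passed the test (adjusted p = 0.00239), and without replicate 2 it was -0.04. The difference between the strains with KOH, 0.18 (SE 0.15), was likewise 0.51 without CRN/PPN2 +KOH replicate 1 and then passed the test (adjusted p = 0.00494).

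PMR1 (YGL167C, chromosome VII, 187616 to 190468, minus strand) encodes the calcium and manganese pump of the Golgi. It was at 188 and 195 CPM in CRN in YPD, 191 and 193 in CRN +KOH, 161 and 166 in CRN/PPN2 in YPD, and 155 and 211 in CRN/PPN2 +KOH. In YPD both CRN/PPN2 libraries were below both CRN libraries, by a log2 value of -0.23 (SE 0.12, 95% interval -0.48 to 0.03), which missed the threshold (adjusted p = 0.334, edgeR). In CRN the KOH effect on PMR1 was 0.01 (SE 0.12, -0.25 to 0.27). In CRN/PPN2 it was 0.14 (SE 0.14, -0.15 to 0.42), with -0.05 in replicate 1 and 0.34 in replicate 2, and without CRN/PPN2 +KOH replicate 1 it was 0.38 and passed the test (adjusted p = 0.0403). The gene HUR1 overlaps 181 bases of PMR1 on the opposite strand and had 6 to 20 counts.

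VCX1 (YDL128W, chromosome IV, 232652 to 233887, plus strand) encodes the vacuolar exchanger of protons and calcium, whose activity calcineurin is known to lower. It was at 73.9 and 83.2 CPM in CRN in YPD, 74.1 and 85.7 in CRN +KOH, 78.9 and 91.4 in CRN/PPN2 in YPD, and 64.5 and 84.2 in CRN/PPN2 +KOH. Replicate 2 was above replicate 1 in each group, and the groups overlapped in all 4 comparisons. The log2 fold change was 0.02 (SE 0.12, 95% interval -0.23 to 0.28) for KOH vs. YPD in CRN and -0.21 (SE 0.15, -0.53 to 0.10) in CRN/PPN2.

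Counted over the group, CRN/PPN2 vs. CRN in YPD called 0 of the 10 genes, where 6.5% of all tested genes were called, 4.13% higher and 2.38% lower. At an unadjusted p under 0.05 edgeR called 1, RCN2, against 19.6% of all genes. DESeq2, at an adjusted p under 0.05, also called 0, against 4.36% of all genes. KOH vs. YPD in CRN called 1 higher, RCN2, with a background of 15.1% of all genes in either direction 7.53% higher and 7.61% lower. CRN/PPN2 vs. CRN with KOH called 3, with CMP2 and CCH1 higher and CNB1 lower, against 56.7% of all genes in either direction, 30.8% higher and 25.9% lower. KOH vs. YPD in CRN/PPN2 called 3 higher, CNA1, CMP2 and CCH1, against 54.7% in either direction, 29.2% higher and 25.5% lower. The test of a difference between the KOH effects called CMP2 and CCH1 higher and RCN2 lower, 3 of 10 against 39.7% of all genes, with 22.2% higher and 17.6% lower. With 10 genes a single call shifts the share strongly, and whether the group was called less often than all genes was not tested. The libraries of the groups did not overlap for 3, 5, 4 and 6 of the 10 genes in the comparisons of strains in YPD, of strains with KOH, of media in CRN and of media in CRN/PPN2. For all genes these shares were 40.6%, 74.1%, 56.8% and 69.8%. The pairwise comparisons share libraries, so their calls are not independent of each other.

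The median log2 fold change of the 10 genes was 0.09 for the strains in YPD, 0.03 for the strains with KOH, 0.07 for KOH in CRN and 0.19 for KOH in CRN/PPN2. Over all tested genes the median was 0.01, 0.03, 0.01 and -0.01. The genes behind the calls for KOH in CRN/PPN2 were the channel gene CCH1 and the 2 catalytic subunit genes, while no pump gene, exchanger gene or CRZ1 was called. These 3 of 10 lie near the 29.2% of all tested genes called higher, so no pattern of function is read from them. The call of CNA1 was lost in 11 of 15 alternative analyses.

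The tested genes most like CCH1 over the 8 libraries, by Pearson's r of log2 CPM, were SPO75 (0.991), MAL11 (0.99), YSP3 (0.988) and YOL107W (0.987). Those most like CMP2 were UBP5 (0.979), RGT1 (0.978), SED1 (0.977) and FAS2 (0.976). The libraries share the contrast between CRN/PPN2 +KOH and the rest, and these values are a description with no test.

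Of 12 other genes of calcium and related cation channels and transporters, 11 were tested. None was called for the strains in YPD or for KOH in CRN, where 6.5% and 15.1% of all tested genes were called. In these, 2 and 3 of the 11 had an unadjusted p under 0.05 in edgeR, against 19.6% and 29.5% of all genes. In CRN/PPN2, KOH called 3 higher and 2 lower of the 11, with a median of 0.14, against 29.2% higher and 25.5% lower of all tested genes. ECM7, which encodes a regulator of the Cch1-Mid1 channel, was at 97.7 and 87 CPM in CRN in YPD, 114 and 93.6 in CRN +KOH, 97 and 82 in CRN/PPN2 in YPD, and 261 and 238 in CRN/PPN2 +KOH. Like CCH1, it was far above all other libraries in CRN/PPN2 +KOH. KOH vs. YPD in CRN/PPN2 gave a log2 value of 1.48 (SE 0.12, adjusted p = 2.35e-08, edgeR). MID1, which encodes the other subunit of the channel and is named here after its values were seen, had 0.37 (SE 0.16, adjusted p = 0.0627) in the same comparison. ATX2, which encodes a manganese transporter of the Golgi, rose by 1.18 (SE 0.15), and CCC1, which encodes a vacuolar transporter of iron and manganese, fell by 1.03 on the log2 scale (SE 0.16). The count is completed by the manganese transporter gene SMF1 (0.83) and the vacuolar channel gene YVC1 (-0.49), which were named after their values were seen. Between the strains with KOH, 4 were higher and 2 lower, among them ECM7 (1.26), SMF1 (1.18) and the Golgi transporter gene GDT1 (-0.60). Of all tested genes, 30.8% were higher and 25.9% lower in this comparison.

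Calmodulin and its kinases lie between calcium and its effectors. CMD1, the calmodulin gene, was at 266 and 306 CPM in CRN in YPD, 268 and 252 in CRN +KOH, 248 and 296 in CRN/PPN2 in YPD, and 545 and 377 in CRN/PPN2 +KOH. It was highest in both CRN/PPN2 +KOH libraries, with a KOH effect in CRN/PPN2 of 0.77 (SE 0.16, adjusted p = 0.000513, edgeR) that was 1.13 in replicate 1 and 0.35 in replicate 2. The kinase gene CMK2 rose with KOH in both strains, by 0.73 (SE 0.12) in CRN and 0.43 (SE 0.12) in CRN/PPN2 (adjusted p = 0.000257 and 0.00674). Its paralog CMK1 was lower with KOH in both, by -0.41 (adjusted p = 0.0494) and -0.43 (adjusted p = 0.0349), calls that 10 and 8 of 15 alternative analyses lost. Of the 3 genes, KOH thus called 1 higher and 1 lower in CRN and 2 higher and 1 lower in CRN/PPN2, where 15.1% and 54.7% of all tested genes were called in either direction.

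Among 10 genes of proteins that bind, modify or carry calcineurin or its substrates, none was called for the strains in YPD or for KOH in CRN, where 6.5% and 15.1% of all tested genes were called. In each, 1 of the 10 had an unadjusted p under 0.05 in edgeR, against 19.6% and 29.5% of all genes. KOH in CRN/PPN2 called 1 higher and 2 lower, with a median of -0.06, against 29.2% higher and 25.5% lower of all genes. FRT2, the paralog of a gene whose product is a calcineurin substrate, rose from 9.4 and 12.9 CPM in YPD to 27.2 and 30.8 CPM with KOH (1.37, SE 0.25, adjusted p = 0.000181, edgeR). CPR1, which encodes a cyclophilin, fell from 358 and 507 to 189 and 196 CPM (-1.13, SE 0.14, adjusted p = 2.62e-06). MCK1, which encodes a kinase of the GSK-3 family, fell from 188 and 215 to 74.7 and 78.3 CPM (-1.39, SE 0.15, adjusted p = 4.45e-07). With KOH, CRN/PPN2 had 1 of the 10 higher and 4 lower than CRN, led by MCK1 (-1.24), CPR1 (-1.01) and FRT2 (1.66), while 30.8% of all genes were higher and 25.9% lower.

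The list of 13 genes known as targets of Crz1 leaves out the 10 genes described above, whether or not they are targets themselves. Of the 13, KOH called 5 higher and none lower in CRN, and 6 higher and none lower in CRN/PPN2. The shares of all genes called higher in these comparisons were 7.53% and 29.2%, and 7.61% and 25.5% were called lower. At an unadjusted p under 0.05 edgeR had 7 of the 13 for KOH in CRN in either direction, against 29.5% of all genes. Leaving out a library moved the count in both strains, in fits that leave a group with a single library. Between the analyses the share of all genes called moved as well, not always in the same direction as the count. In CRN the count was 3 with all libraries thinned to the smallest, where 5.99% of all genes were called in either direction. It was 10 with only the libraries compared, where 33.4% were called, against 15.1% in the main fit. In CRN/PPN2 the count rose without CRN/PPN2 +KOH replicate 1, while the share of all genes called fell. That fit leaves a single library in the group, so no reading is drawn from the rise. The median log2 fold change of the 13 was 0.25 in CRN and 0.34 in CRN/PPN2, against 0.01 and -0.01 for all genes. In CRN the genes were the kinase gene CMK2 (0.73), the cell wall gene SCW10 (0.72) and the plasma membrane protein gene PUN1 (0.67), with ENA1 (0.84) and the cell wall gene NCW2 (0.58) named to complete the count. CMK2, SCW10, PUN1 and NCW2 were also called in CRN/PPN2, with 0.43, 0.46, 0.90 and 2.04.

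**Figure D3:**
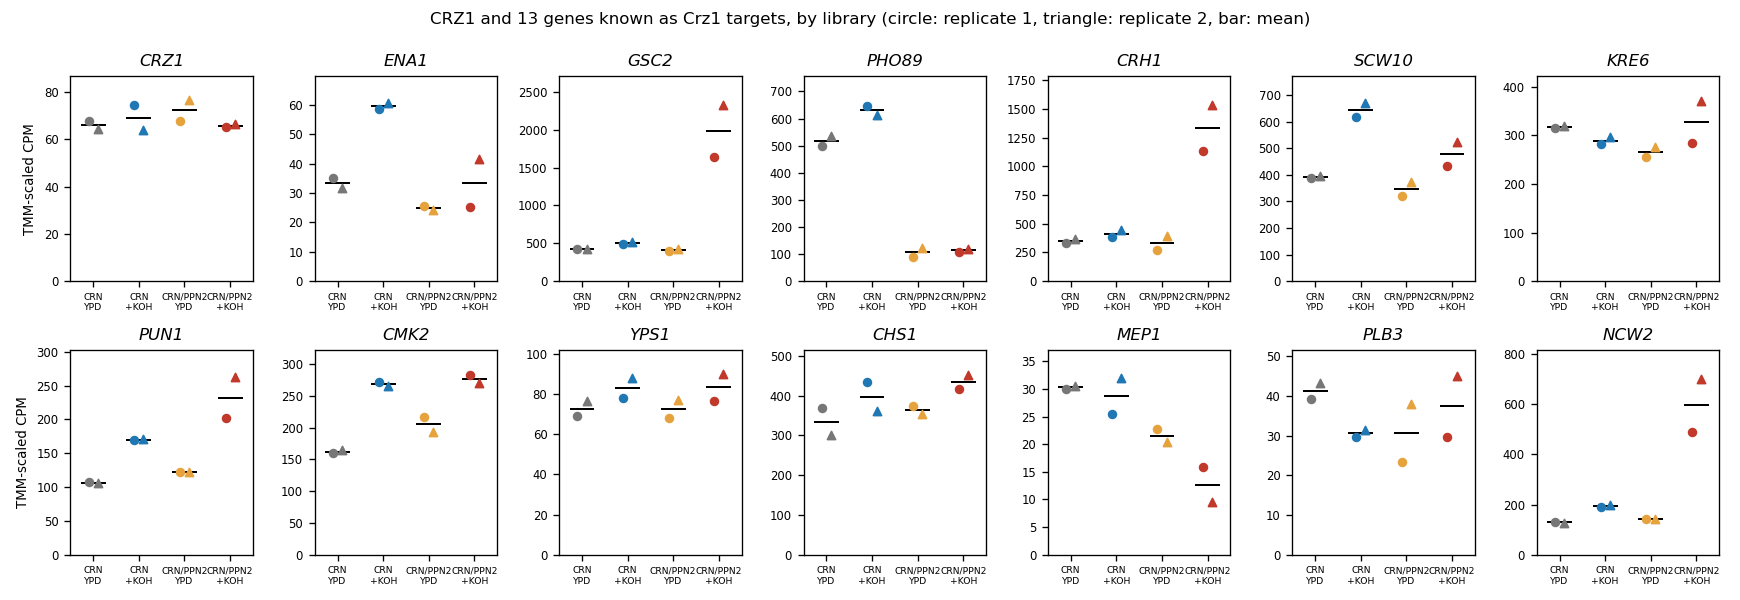
Level (y axis, TMM-scaled CPM from 0) of CRZ1 and of 13 genes known as Crz1 targets in the 4 groups (x axis); circles are replicate 1, triangles replicate 2 and bars the mean of the 2 libraries. GSC2, CRH1 and NCW2 are highest in both CRN/PPN2 +KOH libraries, PHO89 is lower in all 4 CRN/PPN2 libraries, and ENA1 is highest in both CRN +KOH libraries.

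The 3 targets with the largest rise with KOH in CRN/PPN2, GSC2, NCW2 and CRH1, encode proteins that build the cell wall or are part of it. GSC2, the gene of a stress-induced glucan synthase subunit, was at 419 and 431 CPM in CRN in YPD, 491 and 515 in CRN +KOH, 404 and 431 in CRN/PPN2 in YPD, and 1643 and 2324 in CRN/PPN2 +KOH. Its KOH effect was 2.23 (SE 0.15, adjusted p = 9.27e-10, edgeR) in CRN/PPN2 and 0.24 (SE 0.14, adjusted p = 0.269) in CRN, and the difference between them was 1.99 (SE 0.20, adjusted p = 9.66e-07). CRH1, which encodes an enzyme that links chitin to glucan, and NCW2 had differences of 1.75 (SE 0.19) and 1.46 (SE 0.20). In total 3 of the 13 had a higher KOH effect in CRN/PPN2 and none a lower one, against 22.2% and 17.6% of all genes. CRZ1 itself was not called in any comparison. GSC2, CRH1 and other cell wall genes are also known targets of other stress pathways, and the part of Crz1 in these changes was not tested.

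Without a called change of KOH, PHO89 differed between the strains. This gene of a sodium and phosphate cotransporter was at 498 and 537 CPM in CRN in YPD. In CRN/PPN2 in YPD it was at 89.7 and 123 CPM (-2.29, SE 0.14, adjusted p = 4.78e-09, edgeR). It was the only call among the 13 in that comparison, where 2.38% of all tested genes were called lower. At an unadjusted p under 0.05 edgeR had 6 of the 13 in either direction, against 19.6% of all genes. The log2 fold change was negative in 9 of the 13. With KOH, CRN/PPN2 had 4 of the 13 higher and 4 lower than CRN, led by PHO89 (-2.48), GSC2 (1.97) and CRH1 (1.67), and the shares of all genes were 30.8% and 25.9%. PHO89 is also a target of the phosphate signalling pathway.

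**Figure D4:**
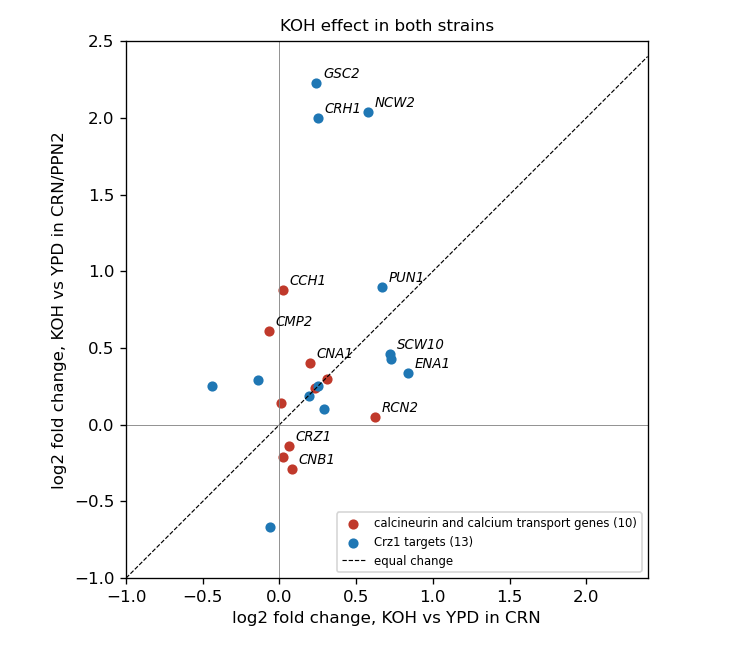
Log2 fold change of KOH vs. YPD in CRN (x axis) and in CRN/PPN2 (y axis) for the 10 genes and the 13 Crz1 targets; the dashed line marks equal change. GSC2, CRH1, NCW2, CCH1 and CMP2 lie above the line, RCN2 and ENA1 below it, and CRZ1 lies near the origin.

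Of the genes with CDRE matches, ENA1 was at 35 and 31.6 CPM in CRN in YPD, 58.5 and 60.5 in CRN +KOH, 25.5 and 24.1 in CRN/PPN2 in YPD, and 25.3 and 41.5 in CRN/PPN2 +KOH. It rose in CRN (0.84, SE 0.16, adjusted p = 0.0012, edgeR), and in CRN/PPN2 its change was 0.34 (SE 0.23, adjusted p = 0.222), with -0.01 in replicate 1 and 0.77 in replicate 2. The difference between the strains, -0.50 (SE 0.28), did not pass the test (adjusted p = 0.159). ENA1 has near-identical tandem copies, so reads that the copies share may not have been counted, and its values are uncertain for that reason. MEP1, named here to complete the genes with matches, was at 30 and 30.5 CPM in CRN in YPD, 25.5 and 32 in CRN +KOH, 22.7 and 20.4 in CRN/PPN2 in YPD, and 15.8 and 9.49 in CRN/PPN2 +KOH, the last on 25 and 8 counts. It was lower in CRN/PPN2 than in CRN with KOH (-1.09, SE 0.28, adjusted p = 0.00302, edgeR), and its KOH effect in CRN/PPN2 was -0.67 (SE 0.29, adjusted p = 0.0588). PMC1, with 2 matches, was not called in any comparison. GSC2, CRH1 and NCW2 had no match to these letters in the window.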

How the data were processed

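Poly(A) RNA of the 8 libraries was sequenced with a strand-specific kit. Reads were mapped by the authors with STAR 2.7.6a to R64 with Ensembl gene models, and the deposited values are whole counts per gene without normalization. Genes reaching 10 CPM in 2 or more libraries were tested with edgeR 4.0.16 in R 4.3.3 (TMM, quasi-likelihood test, Benjamini-Hochberg adjustment over 5430 genes, threshold 0.05). Groups (4) and batch were terms of the model. The replicate number was taken as the batch block because the study's methods tie it to sample preparation and sequencing. The deviations of same-numbered libraries correlated between groups with r of 0.093 to 0.467. SE was derived from the log2 fold change and the F statistic. Replicates differed by more than sampling noise (chi-square per degree of freedom 6.59 to 17.4), and no libraries were merged.

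The members and lists were chosen with earlier results of these data known. Named were all 10 members and, per list and comparison, at most 3 called genes with the smallest adjusted p, the 4 genes most like each of the 2 members with the widest range of group means, and strain markers. Exceptions are stated. Positions and sequences are from RefSeq R64. Reads from another copy, antisense reads and depth limit single genes, and counting error is included in the spread between libraries. Alternatives were no replicate block, DESeq2 1.42.0, RLE factors, no filter, ComBat-seq (sva 3.50.0), only the libraries compared, thinning to the smallest library and leaving out each library. Scripts were tested on simulated data. Figures were drawn with matplotlib 3.10.9.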

Additional observations from a re-analysis of the deposited data

Results flagged for a closer look

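The effect of KOH differed between CRN/PPN2 and CRN for 15 of 46 genes tested (32.6%, the 10 genes and the lists of other pathway genes), by the test of the difference itself (edgeR, adjusted over all tested genes, with 39.7% of all genes passing). Values are the log2 KOH effect in CRN/PPN2 minus that in CRN. Among the 10 genes of calcium transport and calcineurin signalling, CCH1 (0.87, adjusted p = 0.00303) and CMP2 (0.68, adjusted p = 0.00614) were higher and RCN2 was lower (-0.57, adjusted p = 0.021). In the batches of replicates 1 and 2 the differences were 0.86 and 0.89 for CCH1, 0.54 and 0.80 for CMP2, and -0.48 and -0.64 for RCN2.

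Among the transporter genes, ECM7 (1.31, adjusted p = 1.78e-05), SMF1 (1.22, adjusted p = 0.000107) and ATX2 (0.92, adjusted p = 0.00158) were higher, and CCC1 (-0.73, adjusted p = 0.0102) and GDT1 (-0.46, adjusted p = 0.0398) were lower. The calmodulin gene CMD1 was higher (0.91, adjusted p = 0.00339). Among the calcineurin partners, FRT2 was higher (2.01, adjusted p = 0.000209) and CPR1 (-1.21, adjusted p = 9.9e-05) and MCK1 (-1.18, adjusted p = 0.000141) were lower. Among the Crz1 targets, GSC2 (1.99, adjusted p = 9.66e-07), CRH1 (1.75, adjusted p = 2.57e-06) and NCW2 (1.46, adjusted p = 2.6e-05) were higher. All 15 differences include the CRN/PPN2 +KOH libraries, which differ from the others in time of growth, lysis and depth, and the part of these was not tested. For RCN2 the KOH effect was 0.62 in CRN and 0.05 in CRN/PPN2.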

How the results depend on the processing

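Leaving out each library, the number of the 10 genes called ranged from 0 to 1 for the strains in YPD, from 2 to 4 for the strains with KOH, from 0 to 1 for KOH in CRN, from 2 to 5 for KOH in CRN/PPN2 and from 1 to 3 for the difference of the KOH effect. Without CRN/PPN2 +KOH replicate 1, the values for KOH in CRN/PPN2 were 0.57 for PMC1, 0.38 for PMR1 and -0.52 for CNB1. With all 8 libraries they were 0.24, 0.14 and -0.29. The share of all genes called moved between the settings as well, and the counts are to be read beside it. It did not always move in the same direction as the count. KOH in CRN/PPN2 had its highest count without CRN/PPN2 +KOH replicate 1, where the share of all genes called was below the main fit. Leaving out a library leaves its group with a single library, so no reading is drawn from the ranges of these counts. With all libraries thinned to the smallest, RCN2 lost its call for KOH in CRN, leaving 0. In that fit 5.99% of all genes were called, against 15.1% in the main fit. The value of RCN2 was 0.53 without CRN replicate 2 in YPD and 0.59 without CRN replicate 2 in KOH, against 0.62 with all 8 libraries. Among the settings that left out no single library, RCN2 was called for the strains in YPD, giving 1, with ComBat-seq and with only the libraries compared. There 10.2% and 16.7% of all genes were called, against 6.5% in the main fit. Without CRN/PPN2 +KOH replicate 1 or 2 its value was 0.37 and 0.38. With only the libraries compared, KOH in CRN called 2, RCN2 and PMC1, where 33.4% of all genes were called, against 15.1% in the main fit. For the difference of the KOH effect, the model without the replicate block called 1 gene (3 with the block), as did thinning. In these fits 27.6% and 22.8% of all genes were called, against 39.7% in the main fit. Leaving out CRN replicate 2 in YPD or in KOH, this difference was 0.61 or 0.62 for CMP2 and -0.50 or -0.56 for RCN2. Without the block CNA1 lost its call for KOH in CRN/PPN2 (adjusted p = 0.0611, edgeR). CMP2 (0.0721) and RCN2 (0.0583) then lost theirs for the difference. A group left with 1 library was assumed to vary like the others.

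Of 740 recomputed values of the 10 genes, 656 kept direction and call, 29 lost the call, 10 gained it and 45 changed sign, all of these uncalled. With thinning, the sign changed for CRN/PPN2 vs. CRN in YPD in CMP2 (-0.02) and RCN1 (-0.42), with KOH in CRZ1 (0.00), for KOH in CRN in CRZ1 (-0.07), CMP2 (0.02), PMC1 (-0.01), VCX1 (-0.03) and CCH1 (-0.16), for KOH in CRN/PPN2 in RCN2 (-0.02), and for the difference in RCN1 (0.72). The difference changed sign in PMC1 with RLE factors (0.00), no filter (-0.07) and ComBat-seq (-0.02) and in RCN1 with ComBat-seq (0.02). RCN2 for KOH in CRN/PPN2 was -0.03 with no filter, and PMR1 for KOH in CRN was 0.00 with only the libraries compared. The leave-one-out ranges that crossed 0 were, for the strains in YPD, CCH1 -0.24 to 0.09, CNA1 -0.15 to 0.01, CRZ1 -0.03 to 0.28 and RCN1 -0.05 to 0.42. For the strains with KOH they were CRZ1 -0.21 to 0.07, PMC1 -0.08 to 0.51, PMR1 -0.26 to 0.14, RCN1 -0.21 to 0.49 and VCX1 -0.18 to 0.00. For KOH in CRN they were CCH1 -0.15 to 0.18, CRZ1 -0.07 to 0.19, PMR1 -0.06 to 0.07 and VCX1 -0.02 to 0.06. For KOH in CRN/PPN2 they were PMC1 -0.04 to 0.57, PMR1 -0.05 to 0.38, RCN1 -0.11 to 0.57 and RCN2 0.00 to 0.10, and for the difference PMC1 -0.26 to 0.33, PMR1 -0.04 to 0.36 and RCN1 -0.42 to 0.27. The cause of these shifts was not tested beyond the fewer counts or libraries that thinning and leaving out leave. No setting moved the median of all genes by over 0.1 on the log2 scale.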

Other observations

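FIG1, which encodes a membrane protein of calcium uptake during mating, did not pass the filter on low values. It was at 1.14 and 0.662 CPM in CRN in YPD, 2.66 and 1.75 in CRN +KOH, 2.45 and 0.785 in CRN/PPN2 in YPD, and 10.1 and 8.3 in CRN/PPN2 +KOH. These rest on 3 to 16 counts per library.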
